A study of Mus musculus with 6 samples.

Results

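miR-21a and miR-22 are the products of a pair of mouse hairpins, Mir21a and Mir22. Members were the arms named mmu-miR-21a-5p, mmu-miR-21a-3p, mmu-miR-22-3p and mmu-miR-22-5p (the species prefix is left off below), found on the arrays and in the deposited value table by these exact names. All 4 were present, of 1881 mouse miRNAs on the arrays, and 3 of the 4 were measured well enough to be tested, among 237 tested miRNAs. The samples were left ventricles of male C57BL/6 mice, 3 labelled control, which received vehicle, and 3 labelled sunitinib, an oral inhibitor of several receptor tyrosine kinases (VEGF and PDGF receptors and KIT among them) used against cancer. Each total RNA sample was labelled with Cy3 and hybridised alone to an Agilent mouse miRNA array. Dose, duration, age and time of collection are not given in the sources read, and no genotype or other agent is named in either group. The series title concerns heart dysfunction under sunitinib and miR-146a. The arrays thus address which ventricular miRNAs differ between drug and vehicle, and here the question is put to 2 hairpins known from cardiac remodelling. Whether each sample is a separate animal is left unsaid in the labels, and p-values therefore reflect the spread of these samples alone, part of which may be technical.

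A miRNA is a short RNA that guides an Argonaute protein to messenger RNAs, mainly through bases 2 to 8 of its 5′ end, the seed, and lowers their stability and translation. Each hairpin can release an arm from its 5′ side and an arm from its 3′ side, usually in unequal amounts. miR-21 is expressed widely, is prominent in cardiac fibroblasts and is known to increase in overloaded and failing hearts; Pdcd4, an inhibitor of translation, and Spry1, an inhibitor of kinase signalling, are among its described targets. miR-22 is abundant in cardiac and skeletal muscle, has been linked to cardiomyocyte hypertrophy in mouse models, and has Sirt1 and Hdac4 among its described targets.

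The mature sequences are shown because the arms share no seed with each other and because the nearest relatives of miR-21a-5p differ from it at few bases. Sequences are from RefSeq (GRCm38.p6 annotation), which held all 4 members, and capitals mark the seed.
miR-21a-5p: uAGCUUAUcagacugauguuga
miR-21a-3p: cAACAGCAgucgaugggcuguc
miR-22-3p: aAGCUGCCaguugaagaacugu
miR-22-5p: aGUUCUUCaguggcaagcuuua
miR-21b: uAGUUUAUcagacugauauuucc
miR-21c: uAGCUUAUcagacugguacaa

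Among 1679 mature mouse sequences in the RefSeq table, only miR-21c carried the same seed as miR-21a-5p, and none shared the seed of miR-21a-3p, miR-22-3p or miR-22-5p. Counted from the 5′ end, with the miR-21a-5p base first, miR-21b differed at 4 of 22 positions (C4U, G18A, G21U and A22C), the first of them inside the seed. miR-21c differed at 5 of 21 positions (A16G, G18A, U19C, U20A and G21A), all outside the seed. Here "well above background" means that the scanner software gave 50% or more of a probe's spots this call. No probe of miR-21b or miR-21c reached it (0 of 6 arrays each). The RefSeq table held no mature sequence of miR-590, whose 5p arm is commonly placed in the seed family of miR-21, so that search could not find it. The longest miR-590-5p probe on the arrays contains the complement of AGCUUAU, the miR-21a-5p seed. Both arms of miR-590 were likewise at 0 of 6 arrays.

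The hairpins show where the arms lie, with the mature arms in capitals.
Mir21a: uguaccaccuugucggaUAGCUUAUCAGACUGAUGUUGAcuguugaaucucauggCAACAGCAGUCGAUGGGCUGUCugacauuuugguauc
Mir22: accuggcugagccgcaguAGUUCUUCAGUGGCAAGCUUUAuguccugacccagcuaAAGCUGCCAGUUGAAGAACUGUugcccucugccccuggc

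The Mir21a hairpin is 92 bases long and the Mir22 hairpin 95 bases, with 16 bases between the arms in each. Both genes lie on chromosome 11. In the RefSeq annotation Mir21a lies on the minus strand within the span of Vmp1, a protein-coding autophagy gene, and Mir22 on the plus strand within the long non-coding gene Mir22hg.

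On the arrays an arm is read by probes complementary to it from its 3′ end. The probes of an arm differ only in how far they reach toward its 5′ end. They are given because 2 probes of an arm did not always give the same change. Capitals are not used here.
miR-21a-5p longer probe: tcaacatcagtctgataagc
miR-21a-5p shorter probe: tcaacatcagtctgataag
miR-22-3p longer probe: acagttcttcaactggcag
miR-22-3p shorter probe: acagttcttcaactggca
miR-22-5p longer probe: taaagcttgccactgaaga
miR-22-5p shorter probe: taaagcttgccactgaag
miR-21a-3p longest probe: gacagcccatcgact
miR-21a-3p shortest probe: gacagcccatcg

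The miR-21a-5p probes covered bases 3 to 22 and 4 to 22 of the mature arm, and the files place them at chr11:86397588-86397607 and chr11:86397589-86397607 (mm9). The miR-22-3p probes covered bases 4 to 22 and 5 to 22, at chr11:75277278-75277295 and chr11:75277279-75277295. The miR-22-5p probes covered bases 4 to 22 and 5 to 22, at chr11:75277240-75277257 and chr11:75277241-75277257. The 4 probes of miR-21a-3p were only 12 to 15 bases long; the longest covered bases 8 to 22, at chr11:86397631-86397645. The files thus place the 5p probes of miR-21a at lower positions than its 3p probes, whereas a hairpin on the minus strand has its 5p arm at the higher positions, so positions within this hairpin are given only as deposited. The deposited intervals of the miR-22 probes are a base shorter than the probes. The miR-21a-5p probes matched miR-21b over at most 13 consecutive bases and miR-21c over at most 13.

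Each member was read by 30 spots per array. All 6 arrays lay on 1 slide and were scanned on 1 day, with 235 to 252 miRNAs well above background per array. Scaling moved arrays by -0.22 to 0.17 on the log2 scale. Sunitinib replicates 1 and 2 lay in slide row 1, and sunitinib replicate 3 and all 3 controls in row 2. Of the muscle miRNAs that should mark ventricle, miR-1a-3p, miR-133a-3p and miR-133b-3p were well above background on all arrays, with 6 of 7 listed muscle miRNAs tested. The 7 listed miRNAs that define liver, brain, epithelium or pancreas were not well above background on any array. In a tissue extract, fewer cells of a type and less RNA per cell cannot be told apart.

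Values below are log2 of the scaled spot signal of the brightest probe of an arm, changes are sunitinib minus control on that scale, and "past the threshold" means a Benjamini-Hochberg adjusted p under 0.05 in limma over all 237 tested miRNAs. None of the 3 tested arms passed in either direction (0 of 3, and 0 of 3 at an unadjusted p under 0.05 in limma). Over all tested miRNAs 8 passed, or 3.38%, 4 in each direction, and 45 had an unadjusted p under 0.05 in limma. The 4 lower ones include miR-511-3p, which met the detection filter only through the control group. The median change of all tested miRNAs was 0.02. The 2 groups overlapped for all 3 arms (0 of 3 without overlap), against 65 of 237 tested miRNAs without overlap, or 27.4%. With 3 arms these shares are too coarse to place the arms apart from the rest.

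**Figure D1:**
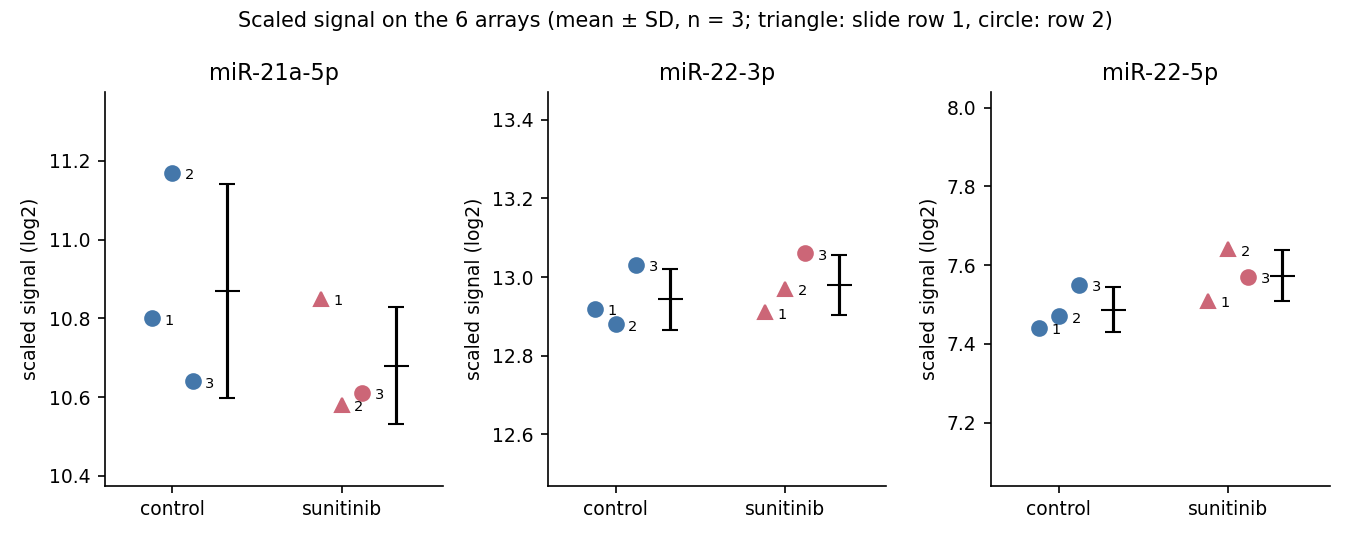
Log2 scaled signal of the 3 detected arms on each array (y axis), controls in blue and sunitinib in red, with replicate numbers, and bars for the group mean ± SD (n = 3). Triangles are arrays of slide row 1 and circles arrays of row 2; the panels span the same log2 range, the groups overlap in every panel, and control replicate 2 at 11.17 is the highest value of miR-21a-5p.

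miR-21a-5p, the dominant arm of the fibrosis-associated miR-21, was at 10.80, 11.17 and 10.64 in control replicates 1 to 3 and at 10.85, 10.58 and 10.61 in sunitinib replicates 1 to 3. Sunitinib replicates 2 and 3 lay below every control, whereas sunitinib replicate 1 lay above control replicates 1 and 3. The means were 10.87 ± 0.27 in control and 10.68 ± 0.15 in sunitinib (SD, 3 arrays each). The change was -0.19 (SE 0.15, 95% interval -0.55 to 0.18; limma adjusted p = 0.588). On the linear scale that interval runs from 0.682 to 1.13 times the control level.

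The miR-21a-5p difference depended on single arrays. Without control replicate 2, the highest of the 6, it was -0.039, and without sunitinib replicate 2, the lowest, it was -0.105; without control replicate 3 it was -0.295. Within slide row 2, which holds sunitinib replicate 3 and the 3 controls, it was -0.25, with no test. The SD of miR-21a-5p over the 6 arrays was 0.22, larger than that of 75.1% of tested miRNAs (median 0.13). The control SD of 0.27 was the larger of the 2 groups' SDs. Each array's value is a mean over the 14 or 15 kept spots of the longer miR-21a-5p probe. Within an array the SD over these spots ran from 0.066 to 0.112, and over those of the shorter probe from 0.053 to 0.215. The unscaled median signals of the longer probe showed the same high control array, at 1996, 2400 and 1374 on the control arrays and 2142, 1411 and 1557 on the sunitinib arrays 1 to 3.

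The shorter miR-21a-5p probe gave 9.26, 9.53 and 9.08 on the control arrays and 9.17, 8.88 and 8.98 on the sunitinib arrays. Its groups overlapped, as those of the longer probe did. Its change was -0.28 (SE 0.14, 95% interval -0.61 to 0.04; limma adjusted p = 0.318 over 419 probes). In the deposited value table, on a log2 scale whose centring is unknown, miR-21a-5p was at 10.05, 10.36 and 9.86 on the control arrays and 10.09, 9.72 and 9.82 on the sunitinib arrays, a difference of -0.21. The same arrays were high and low there.

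miR-21a-3p, the other arm of the same hairpin, was well above background on 0 of 6 arrays and was not tested. Of its 180 spots over the arrays, 166 were kept after outlier flags and 0 of these were well above background. The per-array median signals were -0.84, -0.34 and -1.63 on the control arrays and -1.58, -0.803 and -1.04 on the sunitinib arrays, on the scanner's linear scale after its background subtraction. From 62.1% to 81.5% of its spots on an array had a signal below zero. The highest kept spot on any array reached 4.18, whereas the lowest signal of any spot well above background was 11.3 to 13.2 per array. A single spot, on sunitinib replicate 3, was called well above background at 14.5, but carried an outlier flag and was left out. With probes of 12 to 15 bases, against 18 to 20 for the other arms, this says only that the arm was not detectable with these probes. No comparison of the arms of miR-21a between groups was therefore made.

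**Figure D2:**
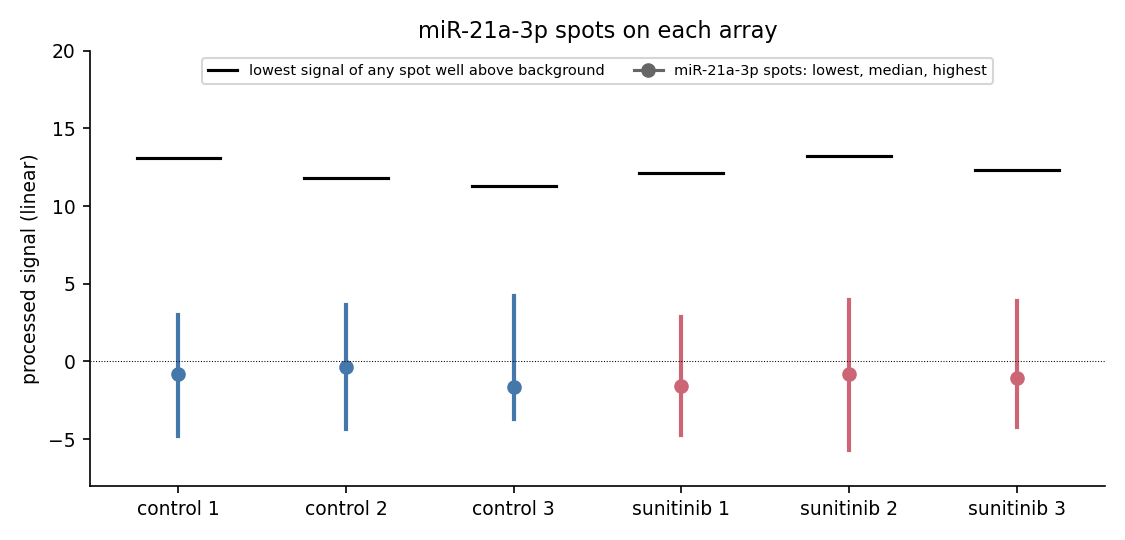
Processed signal of the kept miR-21a-3p spots on each array (y axis, linear units), as the lowest to highest spot (vertical line) and the median (point), with the lowest signal of any spot well above background on that array (black line). Every kept spot lies under the black line of its array, and the medians lie between -1.63 and -0.34.

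miR-22-3p, the main muscle-enriched arm of miR-22, was at 12.92, 12.88 and 13.03 on the control arrays and 12.91, 12.97 and 13.06 on the sunitinib arrays 1 to 3. The 6 values spanned only 0.18, and the third replicate was the highest in both groups. Means were 12.94 ± 0.08 and 12.98 ± 0.08 (SD, 3 arrays each). The change was 0.04 (SE 0.07, 95% interval -0.14 to 0.21; limma adjusted p = 0.815), or 0.909 to 1.16 times the control level. The interval is narrower than that of miR-21a-5p, and the SD over the 6 arrays, 0.07, was larger than that of 13.5% of tested miRNAs. The direction was not stable. The shorter probe gave -0.04 (SE 0.09, 95% interval -0.25 to 0.17; limma adjusted p = 0.833 over 419 probes), and the authors' deposited table gave 12.41, 12.36 and 12.44 on the control arrays and 12.30, 12.31 and 12.43 on the sunitinib arrays, a difference of -0.06. Without sunitinib replicate 3 the change was -0.007, and within slide row 2 it was 0.12, with no test.

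miR-22-5p, the other arm of the hairpin, was at 7.44, 7.47 and 7.55 on the control arrays and 7.51, 7.64 and 7.57 on the sunitinib arrays 1 to 3. Sunitinib replicates 2 and 3 lay above every control, and sunitinib replicate 1 lay among them. Means were 7.49 ± 0.06 and 7.57 ± 0.06 (SD, 3 arrays each). The change was 0.09 (SE 0.07, 95% interval -0.07 to 0.25; limma adjusted p = 0.536), or 0.952 to 1.19 times the control level. The shorter probe gave 0.03 (SE 0.07; limma adjusted p = 0.833 over 419 probes), the authors' deposited table a difference of 0.06, and slide row 2 alone 0.08, with no test. All kept spots of miR-21a-5p, miR-22-3p and miR-22-5p (176, 177 and 178 of 180) were well above background, and 0 were saturated.

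**Figure D3:**
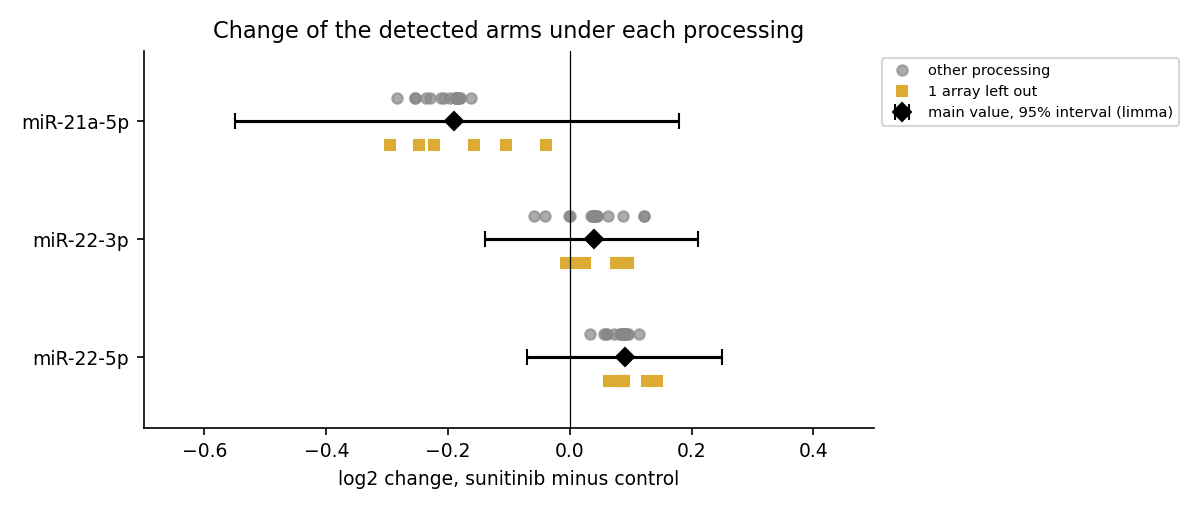
Log2 change, sunitinib minus control (x axis), of the 3 detected arms, with the limma estimate and 95% interval (black), the values under other processing (grey) and with 1 array left out (yellow). All 3 intervals include 0; the values of miR-21a-5p lie between -0.295 and -0.039, and those of miR-22-3p lie on both sides of 0.

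At the level of single probes, 0 of the 6 probes of the detected arms passed the threshold, against 15 of 419 tested probes, or 3.58%. The arms were also compared with each other within each array, where a scaling factor cancels. Only the change in such a difference between groups is read here, since signals of different probes give no order of abundance. The miR-21a-5p value minus the miR-22-3p value was -2.12, -1.72 and -2.39 on the control arrays and -2.06, -2.39 and -2.45 on the sunitinib arrays. The groups overlapped, and the change of miR-21a-5p minus that of miR-22-3p was -0.23 (p = 0.4 by an exact two-sided permutation test, whose lowest possible p with 3 against 3 arrays is 0.1).

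For the arms of miR-22, the 3p value minus the 5p value was 5.48, 5.42 and 5.48 on the control arrays and 5.40, 5.33 and 5.50 on the sunitinib arrays. The lowest and the highest of the 6 were both sunitinib arrays. The change of the 3p arm minus that of the 5p arm was -0.05 (p = 0.5 by the same exact two-sided permutation test). Adjusted over these 2 comparisons by Benjamini-Hochberg, both exact permutation p-values were 0.5.

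**Figure D4:**
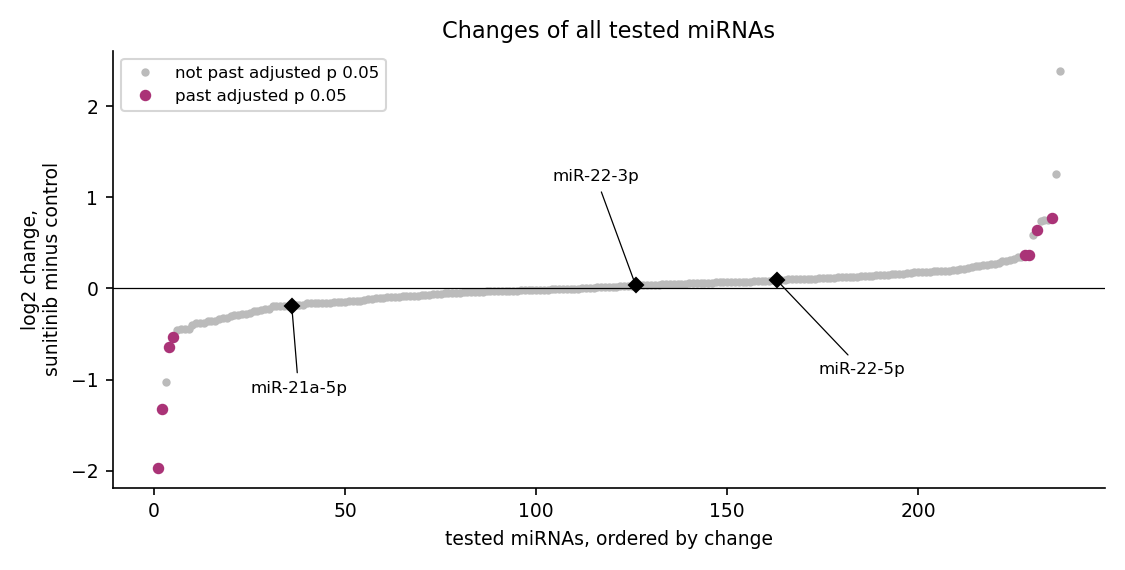
Log2 change, sunitinib minus control (y axis), of all 237 tested miRNAs in order of change (x axis), with the 8 past the threshold in purple and the 3 detected arms as black diamonds. The arms lie at -0.19, 0.04 and 0.09, within the grey run of miRNAs not past the threshold.

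A measure added after the values were seen was the signal of the longer probe minus that of the shorter probe of the same arm, within each array. For miR-21a-5p it was 1.53, 1.63 and 1.56 on the control arrays and 1.68, 1.7 and 1.64 on the sunitinib arrays, all sunitinib arrays lying above all controls. The difference of means was 0.10 (p = 0.1 by an exact two-sided permutation test, the lowest that 3 against 3 arrays can give). For miR-22-5p it was 0.71, 0.67 and 0.70 on the control arrays and 0.78, 0.74 and 0.73 on the sunitinib arrays, again without overlap, with a difference of 0.06 (exact permutation p = 0.1, two-sided). For miR-22-3p it was 1.16, 1.16 and 1.25 on the control arrays and 1.29, 1.34 and 1.18 on the sunitinib arrays, where sunitinib replicate 3 lay among the controls and the difference was 0.08 (exact permutation p = 0.2, two-sided). Adjusted over the 3 arms, these exact permutation p-values were 0.15, 0.15 and 0.2.

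Sunitinib thus lay above control without overlap for 2 of the 3 arms. Among 165 miRNAs with 2 or more detected probes, the brightest minus the next brightest probe did so for 36, or 21.8%, and the reverse for 9. The mean was higher in sunitinib for 108 of the 165, with a median difference of 0.037. Slide row 1 held only sunitinib arrays, replicates 1 and 2, and the median of row 1 minus row 2 was 0.045. Sunitinib replicate 3, in row 2 with the controls, had a median of 0.007 above the control mean. For miR-21a-5p, miR-22-3p and miR-22-5p that array lay at 0.06, -0.01 and 0.03 from the control mean. The part of the slide row in these values was not tested.

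**Figure D5:**
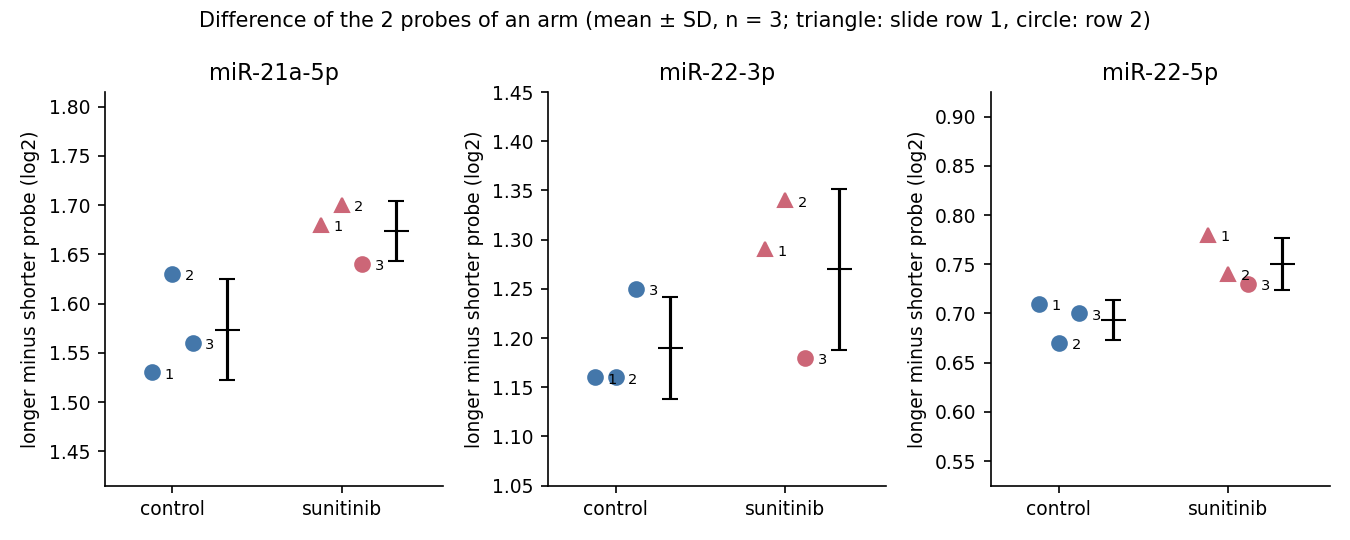
Longer probe minus shorter probe of the same arm on each array (y axis, log2), controls in blue and sunitinib in red, with mean ± SD (n = 3), triangles for slide row 1 and circles for row 2. The panels span the same log2 range; the groups do not overlap for miR-21a-5p and miR-22-5p and overlap for miR-22-3p, where sunitinib replicate 3 at 1.18 lies among the controls.

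The miRNAs whose course over the 6 arrays was nearest to each arm were found by the root mean square difference of log2 values, each centred on its own mean, over the 236 other tested miRNAs. These distances are descriptions over 6 arrays that share 1 slide and 1 scaling. Nearest to miR-21a-5p were miR-338-3p at 0.09, miR-676-3p at 0.12 and miR-218-5p at 0.12, where the median of all was 0.25. miR-338-3p was at 5.92, 6.17 and 5.89 on the control arrays and 6.08, 5.76 and 5.65 on the sunitinib arrays, also highest in control replicate 2. Nearest to miR-22-3p were the endothelial miR-126a-3p at 0.04, miR-378a-5p at 0.04 and miR-100-5p at 0.05, against a median of 0.14. Nearest to miR-22-5p were miR-378a-5p at 0.03 and the muscle miRNAs miR-133b-3p and miR-1a-3p at 0.04 each, against a median of 0.12. miR-378a-5p, which comes from an intron of the metabolic coactivator gene Ppargc1b, was thus among the nearest 3 of both miR-22 arms. The SD over the 6 arrays was only 0.07 for each miR-22 arm. By this measure any miRNA of small spread lies near them, so nearness here does not show a shared course. None of the 8 miRNAs named in this paragraph passed the threshold in limma.

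Other miRNAs described in cardiac remodelling were taken as lists. Of 15 tested miRNAs mostly described as promoting it, 0 rose and 0 fell past the threshold in limma, and 2 had an unadjusted p under 0.05. Over all 237 tested miRNAs, 8 passed, or 3.38%, and 45 had an unadjusted p under 0.05. The median change of the 15 was 0.02, equal to that of all tested miRNAs. miR-208b-3p, from an intron of the β-myosin gene Myh7, had a change of 1.25 (SE 0.53, limma adjusted p = 0.263), with means of 5.03 ± 0.62 in control and 6.28 ± 0.95 in sunitinib (SD, 3 arrays each). miR-212-3p, a hypertrophy-associated miRNA, was at -0.45 (SE 0.17, limma adjusted p = 0.246), miR-155-5p at 0.15 and miR-23a-3p at 0.17.

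Of 14 tested miRNAs mostly described as restraining remodelling, 0 passed in either direction in limma. An unadjusted p under 0.05 was found for 1, beside 45 of all 237 tested miRNAs. The median change of the 14 was 0.12, beside 0.02 over all tested miRNAs, and 12 of the 14 were above 0. Since the median of all tested miRNAs was itself above 0, most of them were above 0 too. Whether this list differs from the rest was not tested. Several of the 14 belong to the same families (miR-29, miR-30, miR-26 and miR-133), so they are not 14 separate observations. miR-29a-3p, known to repress collagen messenger RNAs, was at 0.26 (SE 0.09, limma adjusted p = 0.211), miR-26a-5p at 0.19, miR-30c-5p at 0.15 and miR-30a-5p at 0.14.

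Since miR-21 is carried by fibroblasts and leukocytes as well as muscle cells, marker lists of these cells are given beside miR-21a-5p. Of 6 tested fibroblast and mural miRNAs, 0 passed in limma and 1 had an unadjusted p under 0.05, beside 45 of all 237 tested. In this list 0 were above 0, and the median was -0.08, beside 0.02 over all tested miRNAs. Whether the list differs from the rest was not tested. miR-145a-5p, a smooth muscle miRNA, was at -0.23 (SE 0.08, limma adjusted p = 0.211), miR-199b-5p at -0.14 and miR-143-3p at -0.07. The log2 of their summed signal was 11.3 to 11.4 in control and 11.1 to 11.3 in sunitinib. Of 6 tested muscle miRNAs, 0 passed in limma, 0 had an unadjusted p under 0.05, and the median was 0.06. These 6 include miR-208b-3p, at 1.25 as given above, with miR-1a-3p at 0.06, miR-133b-3p at 0.07 and miR-133a-3p at 0.11.

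Of 7 tested leukocyte miRNAs, 3 fell and 4 did not pass in limma, with a median of -0.64. Over all 237 tested miRNAs 8 passed, or 3.38%, and 4 of these were lower. An unadjusted p under 0.05 in limma was found for 5 of the 7 leukocyte miRNAs, beside 45 of all 237. One of the 3, miR-511-3p, met the detection filter only through the control group and is given as a bound. miR-223-3p, a myeloid miRNA, fell from 8.32 ± 0.13 to 7.0 ± 0.08 (SD, 3 arrays each; change -1.32, limma adjusted p = 0.00086). miR-142a-3p, found across blood cells, fell from 6.88 ± 0.07 to 6.24 ± 0.13 (change -0.64, limma adjusted p = 0.02). miR-511-3p, a macrophage miRNA, was well above background on 3 of 3 control and 0 of 3 sunitinib arrays. In the main processing it was at least 2.16-fold lower in sunitinib (measured means 4.58 and 2.61, limma adjusted p = 0.00241). The bound sets the control mean against the mean, over the sunitinib arrays, of the lowest log2 value among probes well above background there (3.32, 3.62 and 3.45). Since the sunitinib values lay below detection, that p compares a measured level with unmeasured ones. The bound, 1.11 on the log2 scale, does not hold under every processing. The change was only -0.31 with normexp, which added an offset of 50 to each signal, and -0.10 with the summed signal. An offset of that size narrows the log2 changes of weak signals, so the normexp value is not directly comparable with the bound.

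miR-146a-5p, the miRNA of the series title and a member of this list, had a change of -1.02 that did not pass (SE 0.25, limma adjusted p = 0.0929), and miR-155-5p, activated in macrophages and lymphocytes, was at 0.15. The lymphocyte miRNA miR-150-5p was at 0.35 and miR-342-3p at -0.01, neither past the threshold in limma. The log2 of the summed leukocyte signal was 9.92 to 10.2 in control and 9.45 to 9.58 in sunitinib, without overlap, as for 27.4% of single tested miRNAs. This sum contains miR-223-3p and miR-146a-5p, and the list was chosen with earlier results of these data known. It is therefore no separate observation and does not describe every member, since 2 of the 7 tested were above 0. miR-142a-5p was not detected on any array. Over the alternatives run, miR-223-3p passed in 22 of 22, among them the block for slide row (change -1.41, limma adjusted p = 0.02). miR-511-3p lost its call in 3 of 21, at -0.31 with normexp, -0.10 with the summed signal and -2.02 with the slide row block. miR-142a-3p lost its call in 10 of 22, among them the block for slide row, where the change was -0.62 (limma adjusted p = 0.246), and the removal of any 1 control array, where it was -0.65, -0.60 and -0.67. miR-146a-5p passed in 3 of 22, at -1.21 in the authors' deposited table, -1.02 without scaling and -1.0 with the percentile over all probes. The part of leukocyte RNA in the miR-21a-5p values was not tested.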

How the data were processed

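The deposited scanner files hold spot intensity on a linear scale, background-subtracted by Agilent Feature Extraction 10.7.1.1, per the file headers, which name build mm9 (10.7 in the submitters' processing notes). A value table, also deposited by the authors, is on a log2 scale, with scaling and centring unknown. Column medians there were 2.196, 2.195 and 2.196 (control) and 2.199, 2.200 and 2.196 (sunitinib).

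Control spots and those with a non-uniformity or population outlier flag were dropped. Arrays were scaled by the 75th percentile of log2 signal, taken over 393 probes detected on every array. Scaled signals were floored at 1, log2-transformed and averaged per probe. A probe counted as detected (well above background) if 50% or more of its spots did, by the scanner software's call. The brightest probe stood for a miRNA. Detection on all 3 arrays of either group admitted 237 of 1881 miRNAs to testing (4415 probes, 56430 spots). Sample titles gave groups and replicate numbers.

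limma 3.58.1 (lmFit and eBayes, R 4.3.3) compared sunitinib with control, with Benjamini-Hochberg adjustment. Tested on simulated data for this comparison (237 miRNAs, 20 changed, 50 runs), the fit recovered 73.3% of 1.5-fold, 90.9% of 2-fold and 98.8% of 4-fold changes. False calls averaged 0.88 to 0.98 per run. These rates are averages over the spreads of all tested miRNAs and do not apply to miR-21a-5p, whose SD was larger than that of 75.1% of them. Differences between arms or probes used exact permutation tests. The number of arrays limits the precision.

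The members and the miRNA lists were chosen with earlier results of these data known. Named were the 4 members, their seed and name relatives, the 3 nearest profiles per detected arm and up to 4 miRNAs per list by unadjusted p (1 list is not reported here); miR-150-5p, miR-342-3p, miR-590 and the muscle markers named for the tissue check were added. Alternatives for the arms and the count of calls varied the background values, scaling, probe choice, detection filter, outlier flags, floor, variance model, blocks and arrays included; list counts and medians were not recomputed.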

Additional observations from a re-analysis of the deposited data

How the results depend on the processing

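None of the 3 tested arms passed the threshold under any of its 24 alternatives that has a test (the value within the slide row has none); the lowest limma adjusted p was 0.306 for miR-21a-5p, 0.433 for miR-22-3p and 0.306 for miR-22-5p. The change of miR-21a-5p stayed below 0, from -0.284 to -0.163 under other processing and from -0.295 to -0.039 with 1 array left out, and that of miR-22-5p stayed above 0 (0.033 to 0.143). miR-22-3p was at or below 0 in 5: 0 with quantile normalization, where its probe held place 14 on all 6 arrays, -0.001 with the mean of probes, -0.040 with the second brightest probe, -0.059 in the deposited value table, and -0.007 without sunitinib replicate 3 (range with 1 array left out -0.007 to 0.096). The second brightest probe is the shorter probe, and the mean of probes averages it with the longer one. Sunitinib replicate 3 held the highest miR-22-3p value, 13.06. Why the deposited value table differed was not tested. The miR-21a-5p minus miR-22-3p change ran from -0.381 to -0.046, and the miR-22 3p minus 5p change from -0.115 to 0.038, the positive value being that within the slide row with both groups.

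Of all tested miRNAs, 8 passed in the main analysis, 4 with normexp, quantile normalization or no scaling, 2 with summed signal, 1 with a slide row block, 13 with array weights, 3 without a filter, and 2 to 17 with 1 array left out (17 without sunitinib replicate 2). With the replicate number as a block, 2 passed, and the arms were at -0.187, 0.038 and 0.089 (limma adjusted p = 0.617, 0.818 and 0.594). The labels state no pairing, so the replicate numbers were not taken as pairs. Same-numbered samples correlated at 0.176, 0.217 and -0.055 in their deviations from group means. These values cannot decide pairing, since for replicates 1 and 2 the groups also lay in different slide rows. The signal of miR-21a-3p lay below detection, so its change and the comparison of the miR-21a arms were not run under any alternative.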

Other observations

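Blood and vessel miRNAs, which accompany ventricular tissue, were also measured beside the miR-21a and miR-22 arms. Of 4 tested erythroid miRNAs, 0 passed the threshold in limma and 0 had an unadjusted p under 0.05, with a median change of 0.07. miR-451a, the main miRNA of red cells, was at 0.19 and miR-144-5p, from the same cluster, at 0.32, whereas miR-144-3p was at -0.10 and miR-486a-5p at -0.05. The log2 of the summed erythroid signal was 11.8 to 12.3 in control and 12.1 to 12.2 in sunitinib. Both tested endothelial miRNAs missed the threshold in limma: miR-126a-3p was at -0.02 (adjusted p = 0.884) and miR-126a-5p at -0.18 (adjusted p = 0.535).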
